A study of Homo sapiens with 4 samples.

Results

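The MAP kinase ERK limits its own activity through genes that it switches on. Such inhibitors and other genes that respond to ERK, 10 in all, are described here and labeled ERK feedback genes in the figures. They are the dual-specificity phosphatases DUSP4, DUSP5 and DUSP6, the Sprouty genes SPRY1, SPRY2 and SPRY4, the Sprouty-related genes SPRED1 and SPRED2, the transcription factor gene ETV5 and PHLDA1. They were chosen by symbol, with earlier results of these data known. All 10 were found by Ensembl identifier among the 20348 genes of the deposited count table. RNA came from K562, a line from chronic myeloid leukemia that carries the BCR-ABL1 kinase fusion, and from THP-1, a line from acute monocytic leukemia that carries a KMT2A-MLLT3 fusion and an activated NRAS allele. Cells received periplocin, a cardiac glycoside of Cortex periplocae, at 100 nM, or DMSO alone, and were collected after 72 h. Poly-A RNA was sequenced from 1 library per condition, 4 in all, and the dose and time come from the study's methods. For the controls, sample titles read blank and library names read DMSO.

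RAS proteins switch on the RAF, MEK and ERK kinases in turn, and active ERK raises the transcription of its own inhibitors. DUSP6 and DUSP5 remove phosphate from ERK in the cytoplasm and in the nucleus, and DUSP4 is a nuclear phosphatase of ERK and of related kinases. Sprouty and SPRED proteins act above ERK on RAS and RAF, the SPREDs by bringing the RAS inhibitor neurofibromin to the membrane. ETV5 is an ETS factor of the PEA3 group whose gene responds to ERK, and PHLDA1 is a pleckstrin homology-like protein whose transcript is used with the others as a readout of ERK signaling.

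Library totals lay between 16381149 and 20622694 counts, and 1 CPM, the unit of counts scaled to library size by TMM over the 4 libraries, stood for 16.9 to 19.8 counts. The share of mitochondrially encoded genes was 5.62% in K562 DMSO and 2.07% in K562 periplocin, and 5.24% and 3.92% in THP-1. The summed level of 5 erythroid-side markers (GATA1, KLF1, TAL1, HBG1 and HBZ) was 1025 CPM in K562 DMSO, 4322 CPM in K562 periplocin and between 1.77 and 2.33 CPM in the THP-1 libraries. That of 6 myelomonocytic markers (SPI1, CEBPA, LYZ, CD33, MPO and CD68) was 942 CPM in THP-1 DMSO and 1103 CPM in THP-1 periplocin. In K562 it was 103 CPM in DMSO and 112 CPM in periplocin, and MPO had 0 counts in both libraries. The labels of the lines thus fitted their markers. Between the K562 libraries, 4 of the 5 erythroid-side markers were called higher in periplocin and 2 of the 5 tested myelomonocytic markers lower. Between the THP-1 libraries, 1 of the 6 myelomonocytic markers was higher, 1 was lower and 0 of the 3 tested erythroid-side markers were called. Of all genes tested in THP-1, 9.06% were called higher and 11.5% lower. The part of these shifts and of the mitochondrial share in the values below was not tested. In bulk RNA, fewer expressing cells and less RNA per cell cannot be told apart.

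Windows before the RefSeq start are shown for SPRY4, the K562 member with the largest fall, and for SPRED2, the one with the most counts. No such window was at hand for ETV5. The 250 bases before the RefSeq start of SPRY4 lie on the minus strand of GRCh38.p14 at chr5:142324248-142324497, partly in an exon of a non-coding SPRY4 transcript. Those of the first of 2 SPRED2 entries are shown at chr2:65432638-65432849, also on the minus strand, without the 38 bases next to the start that GENCODE release 29 counts as untranslated region. Capitals mark GGAA or its reverse complement TTCC, the core that ETS factors read, which 92.7% of all windows hold.
SPRY4: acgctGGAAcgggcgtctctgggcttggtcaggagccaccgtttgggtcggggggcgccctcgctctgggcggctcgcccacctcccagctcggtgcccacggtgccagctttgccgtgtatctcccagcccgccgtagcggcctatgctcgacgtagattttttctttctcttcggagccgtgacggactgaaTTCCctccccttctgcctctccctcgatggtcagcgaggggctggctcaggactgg
SPRED2: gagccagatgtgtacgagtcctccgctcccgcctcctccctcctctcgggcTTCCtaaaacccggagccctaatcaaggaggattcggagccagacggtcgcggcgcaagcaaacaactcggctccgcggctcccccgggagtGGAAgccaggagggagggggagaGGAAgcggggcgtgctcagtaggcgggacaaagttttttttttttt
Over the whole 250 bases, SPRY4 has 2 such cores and SPRED2 has 4, and 76.5% and 34.3% of all 35116 RefSeq promoter windows of this length have at least as many. RefSeq windows were at hand for 7 of the 10 members, in 11 entries. CCGGAAG, a longer ETS sequence that contains the core, was found on either strand in 1 entry, at SPRY1, compared with 8.52% of all windows. TGACGT, the core of a cyclic AMP response element, and TGACTCA, an AP-1 site, were in 0 of the 11 entries and in 7.10% and 4.20% of all windows. Such matches describe the letters of these windows only.

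Without the drug, SPRY4, SPRY1, SPRED1 and ETV5 were higher in K562 than in THP-1, DUSP4 and DUSP6 were higher in THP-1, and the other 4 members were not called. A member was called when its counts differed by at least 2-fold after scaling and the exact 95% interval of the ratio, which covers counting error only, left out 0 on the log2 scale. The DMSO libraries are also the controls of the drug comparisons below. In this comparison 46.1% of 14137 genes with at least 10 counts in the pair were called (24.4% higher and 21.7% lower in THP-1), and 6 of the 10 members were, a share near that of all genes. DUSP4, DUSP6 and SPRY1 reached 10 counts only through the line in which they were high. With 1 library per condition there is no replicate check, and each interval compares libraries, not conditions.

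DUSP6 was at 0.410 CPM in K562 DMSO and 22.4 CPM in THP-1 DMSO, which is 7 counts against 442. This was 54.5-fold higher in THP-1 (95% interval 26.3 to 136). DUSP4 had 1 count in K562 DMSO and 59 in THP-1 DMSO, a ratio of 51.0 (8.80 to 2047) that rests on the single K562 count. Both phosphatase genes were therefore close to the floor of 3 counts, or 0.176 CPM, in K562. SPRY4 showed the reverse, at 61.8 CPM in K562 DMSO and 1.21 CPM in THP-1 DMSO, a 50.9-fold difference. SPRY1 had 31 counts in K562 DMSO and 2 in THP-1 DMSO, and SPRED1 was at 36.0 and 5.01 CPM. ETV5 was 5.16-fold higher in K562, at 52.8 CPM against 10.2 CPM. SPRY2, SPRED2, DUSP5 and PHLDA1 differed by less than 2-fold between the DMSO libraries.

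Per kilobase of annotated exons, which allows genes to be compared, SPRED2 was the highest member in all 4 libraries, at 18.3 CPM per kb in K562 DMSO and 13.3 in THP-1 DMSO. In K562 DMSO it was followed by SPRY4 at 9.42 and ETV5 at 9.10 CPM per kb, whose exact Poisson intervals overlapped, and then by SPRY2 at 5.98 and SPRED1 at 4.36. DUSP5, SPRY1, PHLDA1, DUSP6 and DUSP4 followed at 1.86 CPM per kb or less, and from SPRY1 downward each overlapped its neighbor. In THP-1 DMSO the order after SPRED2 was SPRY2 at 10.2, DUSP6 at 4.83, ETV5 at 1.76 and DUSP5 at 1.03 CPM per kb, with no overlap between neighbors. SPRED1, DUSP4, PHLDA1 and SPRY4 came next, each overlapping its neighbor, and SPRY1 was last. After periplocin SPRY4 stood below SPRY2, SPRED1 and ETV5 in K562, at 1.64 CPM per kb and overlapping ETV5 at 2.13. In THP-1 DUSP4 and PHLDA1 stood above DUSP5 after the drug, at 2.96, 2.19 and 1.60 CPM per kb, and the last pair overlapped.

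**Figure D1:**
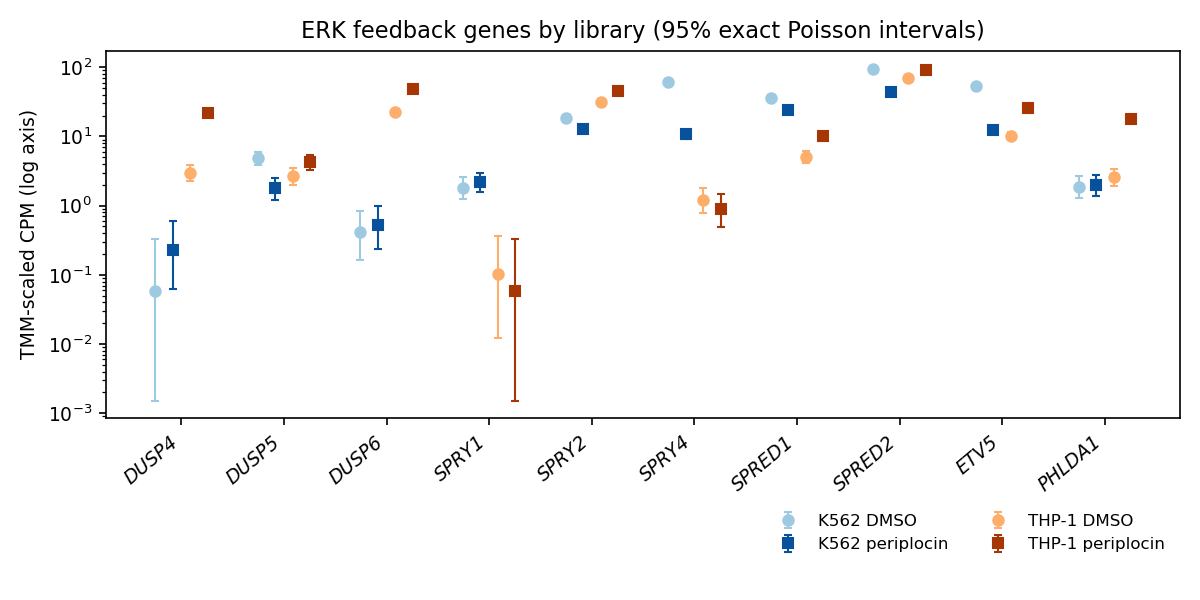
Level of each ERK feedback gene in the 4 libraries, in TMM-scaled CPM on a log axis, with 95% exact Poisson intervals for counting error (1 library per condition). SPRY4 and ETV5 drop between the K562 libraries, DUSP4 and PHLDA1 climb between the THP-1 libraries, and DUSP4 and DUSP6 in K562, SPRY1 in THP-1 and SPRY4 in THP-1 periplocin sit below 1 CPM.

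In K562, the Sprouty gene SPRY4, the ETS factor gene ETV5, the phosphatase gene DUSP5 and SPRED2 were lower in the periplocin library, and 0 members were called higher. These 4 were called among the 9 members with at least 10 counts in the pair. Of all 13075 genes tested in K562, 21.9% were called, 12% lower and 9.88% higher. The median log2 ratio was -0.57 over the 9 members and -0.02 over all genes tested.

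SPRY4, an inhibitor of RAS-ERK signaling induced by growth factors, was at 61.8 CPM in K562 DMSO and 10.8 CPM in K562 periplocin. Its 1055 counts became 187, a 5.75-fold fall (log2 ratio -2.52, 95% interval -2.75 to -2.30). ETV5 was at 52.8 and 12.4 CPM, a 4.27-fold fall (log2 ratio -2.09, -2.32 to -1.88). Both lost more than SPRED2, the member with the most counts, which was at 94.3 and 43.8 CPM and fell 2.15-fold. SPRED2 lay close to the 2-fold limit, and its interval on the log2 scale (-1.23 to -0.98) reached past it. DUSP5, the nuclear ERK phosphatase, had 83 and 31 counts, or 4.86 and 1.78 CPM, a 2.73-fold fall with a wide interval (log2 ratio -1.45, -2.09 to -0.84).

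SPRY2 and SPRED1 were lower in K562 periplocin by less than 2-fold. SPRY2, the Sprouty member best known from receptor tyrosine kinase signaling, was at 18.2 and 12.8 CPM (log2 ratio -0.50, -0.76 to -0.25). SPRED1, a neurofibromin partner, was at 36.0 and 24.2 CPM (-0.57, -0.76 to -0.39). Both intervals left out 0, so these differences exceeded counting error without reaching 2-fold. SPRY1, at 31 and 38 counts, PHLDA1, at 32 and 34 counts, and DUSP6, at 7 and 9 counts, did not differ beyond counting error. The interval of DUSP6 (ratio 1.26, 0.418 to 3.99) was wide enough to hold the rise that this gene showed in THP-1. DUSP4 had 1 and 4 counts, a ratio of 3.93 with an interval from 0.389 to 193, and was not tested.

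In THP-1, DUSP4, PHLDA1, ETV5, DUSP6 and SPRED1 were higher in the periplocin library, and 0 members were called lower. These 5 were called among the 9 members with at least 10 counts in the pair, where 20.6% of all 13679 genes tested were called, 9.06% higher and 11.5% lower. The median log2 ratio was 1.00 over the 9 members and -0.03 over all genes tested.

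DUSP4 was at 2.99 CPM in THP-1 DMSO and 21.5 CPM in THP-1 periplocin, or 59 and 363 counts, a 7.18-fold rise (log2 ratio 2.84, 95% interval 2.44 to 3.27). PHLDA1 rose by nearly as much, from 2.58 to 17.7 CPM, which is 6.85-fold (2.78, 2.34 to 3.23). ETV5 was at 10.2 and 25.7 CPM, a 2.51-fold rise. DUSP6, the cytoplasmic ERK phosphatase and the phosphatase member with the most counts in this line, was at 22.4 and 49.0 CPM, a 2.19-fold rise (interval 1.95 to 2.46). SPRED1 had 99 and 170 counts, and its 2.01-fold rise lay at the limit of the call (1.00, 0.64 to 1.38). With total counts in place of TMM scaling, its log2 ratio was 0.9988 and it was not called.

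The other members moved less in THP-1. SPRY2 was at 31.0 and 44.5 CPM (log2 ratio 0.52, 0.37 to 0.68) and SPRED2 at 68.6 and 92.0 CPM (0.42, 0.32 to 0.53), higher beyond counting error but by less than 2-fold. DUSP5 was at 53 and 71 counts (0.65, 0.11 to 1.19). SPRY4 had 24 and 15 counts, which did not differ beyond counting error, and SPRY1 had 2 and 1 counts, both under the floor of 3, so that no ratio is given.

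Part of the DUSP6 and PHLDA1 counts could belong to other genes. On GRCh38 in GENCODE release 29, DUSP6 (ENSG00000139318, chromosome 12 from 89347232 to 89353271, minus strand) shares 40.5% of its exonic bases with the antisense gene AC024909.2. PHLDA1 (ENSG00000139289, chromosome 12 from 76025447 to 76033932, minus strand) shares 9.65% and 6.85% with a pair of antisense genes. Without strand, reads of such genes cannot be told apart, and the strand setting of the counting is not given in the sources used here. ETV5 (ENSG00000244405, chromosome 3 from 186046308 to 186110318, minus strand) shares 2.83% with DGKG on the same strand. SPRY4 (ENSG00000187678, chromosome 5 from 142310427 to 142326455, minus strand) shares 0% with the exons of any other annotated gene, as does SPRED2 (ENSG00000198369, chromosome 2 from 65310851 to 65432637, minus strand). No overlapping gene is annotated for DUSP4 (ENSG00000120875, chromosome 8 from 29333064 to 29350668), DUSP5 (ENSG00000138166, chromosome 10 from 110497838 to 110511544), SPRY1 (ENSG00000164056, chromosome 4 from 123396795 to 123403760), SPRY2 (ENSG00000136158, chromosome 13 from 80335976 to 80340951) or SPRED1 (ENSG00000166068, chromosome 15 from 38252326 to 38357249).

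**Figure D2:**
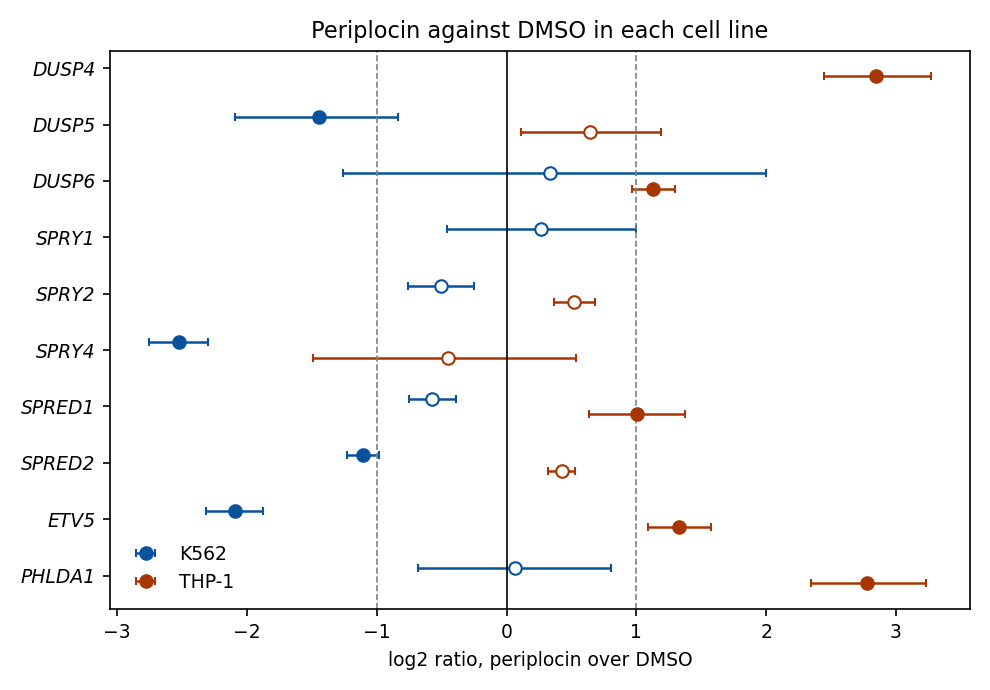
log2 ratio of periplocin over DMSO for each ERK feedback gene in K562 and THP-1, with exact 95% intervals for counting error, filled where called and with dashed lines at 2-fold. DUSP4 in K562 and SPRY1 in THP-1 had too few counts and are left out. ETV5 is called in both lines, at -2.09 in K562 and 1.33 in THP-1.

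The lines differed in direction for several members. Of the 8 members tested in both, 5 had a log2 ratio below 0 in K562 and above 0 in THP-1 (DUSP5, SPRY2, SPRED1, SPRED2 and ETV5), 2 were above 0 in both (DUSP6 and PHLDA1) and SPRY4 was below 0 in both. The intervals of DUSP6 and PHLDA1 in K562 and of SPRY4 in THP-1 held 0, so those signs lay within counting error. Of the 5 with opposite signs, ETV5 alone was called in both lines, and SPRY2 was called in neither. The difference of the log2 ratios, THP-1 minus K562, could be formed for DUSP5, DUSP6, SPRY2, SPRY4, SPRED1, SPRED2, ETV5 and PHLDA1. Its 95% interval for counting error left out 0 in 7 of these 8, the exception being DUSP6 at 0.79 (-0.64 to 2.23). ETV5 had the largest difference, 3.42 (3.10 to 3.75), followed by PHLDA1 at 2.71 (1.90 to 3.53), DUSP5 at 2.09 and SPRY4 at 2.07. For SPRED1, SPRED2 and SPRY2 it was 1.58, 1.53 and 1.02. Without replicates these differences were not tested against the spread between cultures. With an assumed biological coefficient of variation of 0.4 in each library, the interval left out 0 for ETV5 and PHLDA1 alone. The share of all genes with opposite directions, or with such an interval without 0, was not computed. Neither count is therefore shown to be particular to these members.

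Summed over the 10 members, the level was 272 CPM in K562 DMSO and 111 CPM in K562 periplocin, or 0.407 times as much. In THP-1 the sum was 147 and 266 CPM, or 1.81 times as much. In CPM, which is not scaled to gene length, SPRED2 made up 34.6% of the sum in K562 DMSO and 46.8% in THP-1 DMSO. SPRY4 and ETV5 made up a further 22.7% and 19.4% in K562 DMSO, so that sum rests largely on these genes. The 3 phosphatase genes together went from 5.33 to 2.53 CPM in K562 and from 28.0 to 74.7 CPM in THP-1. The 3 Sprouty genes went from 81.8 to 25.8 CPM in K562, mostly SPRY4, and from 32.3 to 45.5 CPM in THP-1, mostly SPRY2.

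No member passed a test that asks for one effect shared by both lines. In edgeR's quasi-likelihood test over the 4 libraries with cell line as a term, 0 of 13584 genes (0%) had an adjusted p under 0.05, 0 of the 10 members among them, and 1535 genes (11.3%) had an unadjusted p under 0.05. Of the members, DUSP4 (log2 change 2.68, unadjusted p = 0.007979, adjusted p = 0.3725 in edgeR) and SPRY4 (-1.68, unadjusted p = 0.02989, adjusted p = 0.4048 in edgeR) were below that unadjusted level. ETV5, whose changes in the lines were opposite, had a log2 change of -0.38 (adjusted p = 0.8905 in edgeR). DESeq2 called 125 genes, 1.06% of those with an adjusted p, and 0 members. With 4 libraries and 3 coefficients, the only measure of error left is the disagreement between K562 and THP-1. For DUSP4, with 1 and 4 counts in K562 and 59 and 363 in THP-1, the estimate rests on THP-1.

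Other transcripts that serve as readouts of ERK activity were compared in a list of 12 genes, which also holds the remaining Sprouty and SPRED genes. In K562, 6 were lower and 1 was higher among 12 tested, with a median log2 ratio of -1.03, and in THP-1, 3 were lower and 4 higher among 11, with a median of 0.61. Over all genes, 21.9% were called in K562 and 20.6% in THP-1. CCND1, the gene of cyclin D1, was at 80.0 and 10.7 CPM in the K562 libraries, a 7.47-fold fall, and at 3.85 and 5.85 CPM in the THP-1 libraries, a difference under 2-fold. ETV4, of the same ETS group as ETV5, fell 6.21-fold in K562, from 90.4 to 14.6 CPM, and had 32 and 10 counts in THP-1, a 2.74-fold fall. ETV1, the third of that group, fell 2.30-fold in K562, from 67.2 to 29.2 CPM, and had 33 and 47 counts in THP-1, which was not called. All genes of the PEA3 group were thus lower in K562 periplocin, whereas in THP-1 ETV5 rose and ETV4 fell.

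EGR1, an immediate early zinc finger gene induced through ERK, fell in both lines, from 128 to 26.9 CPM in K562 and from 17.2 to 7.68 CPM in THP-1. MYC, which ERK stabilizes as a protein, was at 298 and 60.5 CPM in THP-1, a 4.92-fold fall, and at 312 and 166 CPM in K562, a difference under 2-fold. TRIB1, a pseudokinase gene that binds MEK, rose 6.33-fold in THP-1, from 8.60 to 54.4 CPM, and was at 12.1 and 15.6 CPM in K562. In THP-1, then, EGR1, MYC and ETV4 fell and TRIB1 rose in the library in which DUSP4, DUSP6, ETV5 and PHLDA1 rose. Of the 11 list genes tested there, 4 were called higher and 3 lower, so the list had no single direction.

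Of the other MAP kinase phosphatases, a list of 7, 6 were tested in K562 and 2 were called, both higher, with a median log2 ratio of 0.66, where 21.9% of all genes were called. DUSP10, a phosphatase of JNK and p38 named here after its values were seen, was lower in K562 beyond counting error but by less than 2-fold, at 270 and 166 counts (log2 ratio -0.73, -1.02 to -0.44). In THP-1 DUSP10 was higher beyond counting error, also by less than 2-fold, at 770 and 866 counts (0.39, 0.25 to 0.54). DUSP1, an early-response phosphatase with a preference for p38 and JNK, rose in both lines, from 9.26 to 21.3 CPM in K562 and from 0.911 to 5.20 CPM in THP-1. DUSP8, a phosphatase of JNK and p38, rose 2.28-fold in K562, from 89 to 207 counts, and had 14 and 20 counts in THP-1. In THP-1 DUSP2, a nuclear phosphatase of ERK and p38, fell from 85 to 22 counts and DUSP9, a cytoplasmic relative of DUSP6, from 117 to 23 counts. DUSP2 had 1 count in each K562 library, and DUSP9 had 71 and 136 there, which was under 2-fold. Thus 1 of the 7 was higher and 2 were lower in THP-1, with a median of 0.39, where 20.6% of all genes were called.

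Of 23 genes of the cascade, its adaptors, its RAS regulators and the RSK kinases, 22 were tested in K562, where GAB1 was higher, GAB2 was lower and the median log2 ratio was 0.11. Those 2 calls compare with 21.9% of all genes tested in K562. GAB1, an adaptor of receptor kinases, rose from 36.4 to 88.8 CPM. GAB2, an adaptor through which BCR-ABL1 signals to RAS, was at 369 CPM in K562 DMSO and 106 CPM in K562 periplocin, a 3.49-fold fall, and at 81.0 and 97.1 CPM in THP-1. In THP-1, 0 of the 23 were called, with a median of 0.26, compared with 20.6% of all genes. Named for their place in the cascade, the MEK genes MAP2K1 and MAP2K2 differed by less than 2-fold in both lines.

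**Figure D3:**
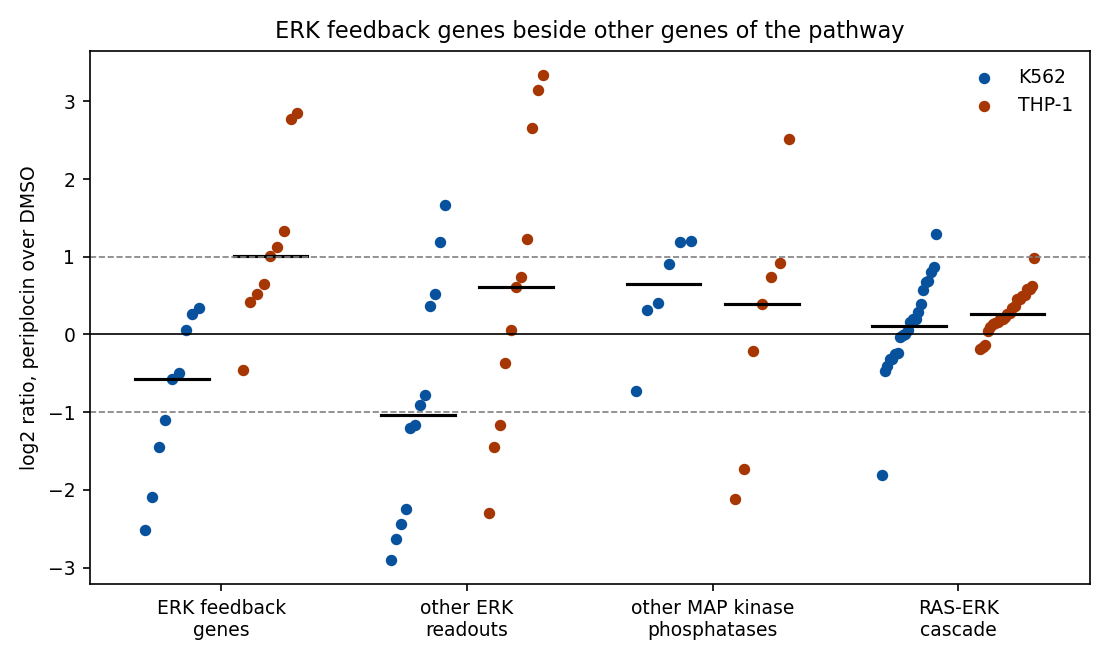
log2 ratio of periplocin over DMSO for each tested gene of 4 lists in K562 and THP-1, with black bars at the list medians and dashed lines at 2-fold. The feedback genes have medians of -0.57 in K562 and 1.00 in THP-1, and the cascade genes cluster near 0 in both lines, at 0.11 and 0.26.

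The genes most like SPRED2, the member with the highest mean level, were sought by the Euclidean distance of log2 CPM, centered on each gene's mean, over the 4 libraries. Among 9152 genes, the nearest were MED18, a Mediator subunit (distance 0.0781), CEBPG, a bZIP factor (0.179), and ELF4, an ETS factor (0.197). MED18 was at 21.8 and 9.90 CPM in the K562 libraries and at 14.8 and 21.0 CPM in the THP-1 libraries. With 4 points per gene, this likeness is a description.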

How the data were processed

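RNA of K562 and THP-1 cells was measured in 4 libraries, 1 per condition. The authors deposited an expected count per Ensembl gene and library, neither normalized nor pooled. The submitters' processing notes name hg38, HISAT2 and StringTie 1.3.1 without a role. The counting program, annotation and strand setting are not given in the sources used here, and the labels and the study's methods name different sequencing platforms. Between 87.4% and 88.3% of values, zeros included, were exactly whole, and the rest were rounded.

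Symbols were matched by identifier (20310 of 20348), and positions and exon lengths came from GENCODE release 29 on GRCh38. TMM factors and the quasi-likelihood test came from edgeR 4.0.16, and the alternative from DESeq2 1.42.0, in R 4.3.3. Ratios within a pair of libraries have exact conditional binomial 95% intervals, which cover counting error only. A gene was called with an absolute log2 ratio of at least 1, an interval without 0 and at least 10 counts in the pair. A library at 0 counts was set to 3. Fits were tested first on simulated data, with counting error alone for the pairs and less spread than was fitted here for both lines. Those simulations could not show how calls behave at the spread of these data. Members and lists were chosen with earlier results of these data known. Some genes of the other lists are not reported here. Every member is named. Of each other list, called genes are named, or the 6 with the largest change at 10 CPM or more, and the 3 genes nearest to the member with the highest level. Alternatives were other scalings, filters, a larger fold and assumed variation. 0 columns were unused.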

Additional observations from a re-analysis of the deposited data

Results flagged for a closer look

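ETV5 was called in opposite directions in the cell lines. Its log2 ratio of periplocin over DMSO was -2.09 in K562 and 1.33 in THP-1, with 1 library per condition, and the difference was not tested against replicates. The THP-1 call was lost with an assumed biological coefficient of variation of 0.4 and at an absolute log2 ratio of at least 2, and the K562 call was kept under both. No other member was called in both lines. Of all genes tested, 21.9% were called in K562 and 20.6% in THP-1, and the share called in opposite directions was not computed.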

How the results depend on the processing

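No paired analysis was possible by replicate, because each condition has 1 library and the labels give no replicate numbers, and the fit over both lines pairs the libraries by cell line only. Of the 4 members lower in K562 and the 5 higher in THP-1, 2 each remained with an assumed biological coefficient of variation of 0.4 and 2 each at an absolute log2 ratio of at least 2. Those were SPRY4 and ETV5 in K562 and DUSP4 and PHLDA1 in THP-1. SPRED1 in THP-1 was not called with total counts (log2 ratio 0.9988) or with total counts without mitochondrial genes (0.9789), and DUSP5 in K562 fell below the filter at 5 CPM. At that filter, 1 member, DUSP6, was called higher in THP-1 DMSO than in K562 DMSO, without DUSP4, and 3 were called lower, without SPRY1. With 0.4, the difference between the lines left out 0 in 2 members. Genes called over the whole table numbered 1638 in K562, 1516 in THP-1 and 4261 between the DMSO libraries at a mean of 5 CPM, then 1050, 1008 and 3887 with 0.4, and 875, 826 and 3917 at log2 2, compared with 2861, 2813 and 6517. For the effect shared by both lines, DESeq2 called 125 genes and edgeR without a filter called 1, compared with 0 in edgeR with it. Scaling without TMM moved the median of all genes between the DMSO libraries by -0.12 (total counts) and -0.13 (without mitochondrial genes). No called member changed direction under the alternatives run. Genes with few counts, DUSP4 and DUSP6 in K562 and SPRY1 in THP-1, are limited by depth.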

Other observations

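SPRED3, the remaining SPRED gene, was chosen here after its values were seen. It had 44 and 142 counts in K562 DMSO and K562 periplocin and 5 and 38 counts in the THP-1 libraries, and it was called higher in both lines (log2 ratios 1.66 and 3.15). SPRED2 fell in K562 by 1.10 on the log2 scale, and SPRED1 was at -0.57 there. IER3, an early-response gene also chosen after its values were seen, had 441 and 262 counts in K562 and 3 and 26 counts in THP-1, a ratio of 10.1 (95% interval 3.10 to 52.2) in the latter that rests on few counts.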
